A study of Homo sapiens with 10 samples.

Results

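Imprinted genes are expressed from only one parental copy, and 10 of them were followed here across the deposited peak lists: H19, IGF2, KCNQ1OT1, CDKN1C, PEG3, PEG10, MEST, SNRPN, GNAS and PLAGL1. They were taken by name and not by any measured value, though earlier results of these data were known when they were chosen. They are 10 of 38865 annotated coding and lncRNA genes on chromosomes 1 to 22, X and Y. The cells were HCT116, an established human colorectal carcinoma line grown in serum-containing medium, and the labels name no treatment or genotype change. The series holds 10 ChIP-seq libraries, 1 for each antibody and 1 for input DNA. Peak lists of 5 were analysed: KAP1, Larp7, Hexim1, Cdk9 and total RNA polymerase II (Pol II, antibody N-20). The libraries for histone marks (H3K27ac, H3K4me1, H3K4me3), for Ser5P Pol II and for input were not analysed here.

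The parental origin of an imprinted copy is marked by DNA methylation that is laid down in the egg or the sperm at a control region. In embryonic cells KAP1 (TRIM28) keeps these marks. It is brought there by zinc finger proteins such as ZFP57, which reads a methylated hexamer, and it recruits the histone methyltransferase SETDB1 and DNA methyltransferases. In differentiated cells KAP1 has also been found at active promoters together with the 7SK ribonucleoprotein. That particle contains Larp7, which holds the 7SK RNA, and Hexim1, which inhibits the kinase Cdk9, the enzyme that releases paused Pol II. The title of the study concerns this second role of KAP1, so the members ask where KAP1, the 7SK proteins, Cdk9 and Pol II lie at genes known for the first role.

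Each list came from 1 library with no replicate, so no test between samples was possible and no p-value is given. Values are the fold of a peak over its background as computed by the authors, and they are read only within 1 list. A ChIP peak does not tell the maternal from the paternal copy. The lists held 61312 KAP1, 184243 Larp7, 229679 Hexim1, 120113 Cdk9 and 92939 Pol II peaks, with median widths of 513, 471, 453, 427 and 287 bp. The depth of reads behind them is unknown. The deposited −log10 q was 5 or more in 14.0% of KAP1, 18.5% of Larp7, 20.0% of Hexim1, 4.42% of Cdk9 and 75.4% of Pol II peaks. The labels give the cell type as endothelial, while the line is epithelial. Pol II was at a start of 6 of 8 epithelial markers, 2 of 7 matched endothelial markers (CLDN5 and TIE1), 1 of 4 fibroblast markers and 1 of 4 blood markers. The epithelial markers without it were VIL1 and LGALS4. Over all genes Pol II was at 56.5%, and over genes with at least 5 starts at 84.1%.

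Matches to the letters read by CTCF and by ZFP57 are shown first. At H19 the control region holds repeated copies of a site for CTCF, the insulator protein that separates the maternal IGF2 from enhancers beyond H19. The central letters of the CTCF consensus, CGNGGNGGC, were searched on both strands of the H19 and IGF2 domain and matched at 48 places. All 6 matches that lie 1 to 6 kb upstream of the H19 start with the most transcripts belong to 1 repeated sequence, written below from the minus strand of hg19 with the matched letters in capitals.
H19 repeat at chr11:2021187-2021221: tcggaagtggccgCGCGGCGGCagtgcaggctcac
H19 repeat at chr11:2021593-2021627: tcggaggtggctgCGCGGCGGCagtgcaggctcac
H19 repeat at chr11:2021999-2022033: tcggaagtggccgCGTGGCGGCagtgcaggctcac
H19 repeat at chr11:2023432-2023466: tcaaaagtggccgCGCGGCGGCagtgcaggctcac
H19 repeat at chr11:2023833-2023867: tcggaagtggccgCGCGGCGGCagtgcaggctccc
H19 repeat at chr11:2024238-2024272: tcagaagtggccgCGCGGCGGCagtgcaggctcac

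The second motif was the hexamer read by ZFP57, TGCCGC, which is GCGGCA on the other strand. The hexamer overlaps the CTCF letters in all 6 H19 repeats. It was also in 35.2% of all KAP1 peaks, so a match alone does not mark a control region. Outside H19 the hexamer is shown from 3 KAP1 peaks that cover an imprinted promoter, in stretches outside annotated untranslated regions. Those of PEG3 and SNRPN lie more than 1 kb from a start. These are plus-strand sequences of hg19 with the hexamer in capitals in either orientation.
PEG3 KAP1 peak, chr19:57350361-57350416: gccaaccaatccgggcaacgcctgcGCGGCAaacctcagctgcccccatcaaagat
SNRPN KAP1 peak, chr15:25201177-25201232: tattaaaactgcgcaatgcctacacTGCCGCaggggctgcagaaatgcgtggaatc
GNAS KAP1 peak at promoter 3, chr20:57429061-57429116: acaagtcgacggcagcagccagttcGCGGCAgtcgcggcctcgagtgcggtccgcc

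All 10 members carried a peak of every list within 1 kb of an annotated transcript start. In each of the 10, at least 1 start had all 5 factors together. The same held for KAP1 at 52.8% of all genes, for Larp7 at 64.9%, for Hexim1 at 68.0%, for Cdk9 at 58.3% and for Pol II at 56.5%. All 5 factors shared a start at 48.0% of all genes. The members have many annotated starts, from 5 in PEG10 to 59 in GNAS and 168 in all, and each start is another place where a peak can fall. Among the 13538 genes with at least 5 distinct starts, KAP1 was at 77.8%, Larp7 at 87.9%, Hexim1 at 90.3%, Cdk9 at 82.8% and Pol II at 84.1%. All 5 shared a start in 73.3% of those genes. A count over 10 genes is small beside these shares, and no test was made of the difference. Start by start, KAP1 was at 79.8% of the 168 member starts (exact 95% interval 72.9 to 85.6) and at 50.8% of the starts of genes with at least 5. The shares for member starts and for those starts were 83.9% and 63.8% for Larp7, 89.3% and 68.2% for Hexim1, 81.0% and 56.2% for Cdk9, and 78.6% and 58.3% for Pol II. Close starts of a gene share peaks, so they are not independent and the interval is too narrow. The share of genes with a KAP1 peak went up with the number of starts, being 30.6% at 1 start, 54.1% at 2 to 4, 73.9% at 5 to 9, 82.1% at 10 to 19 and 85.1% at 20 or more.

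**Figure D1:**
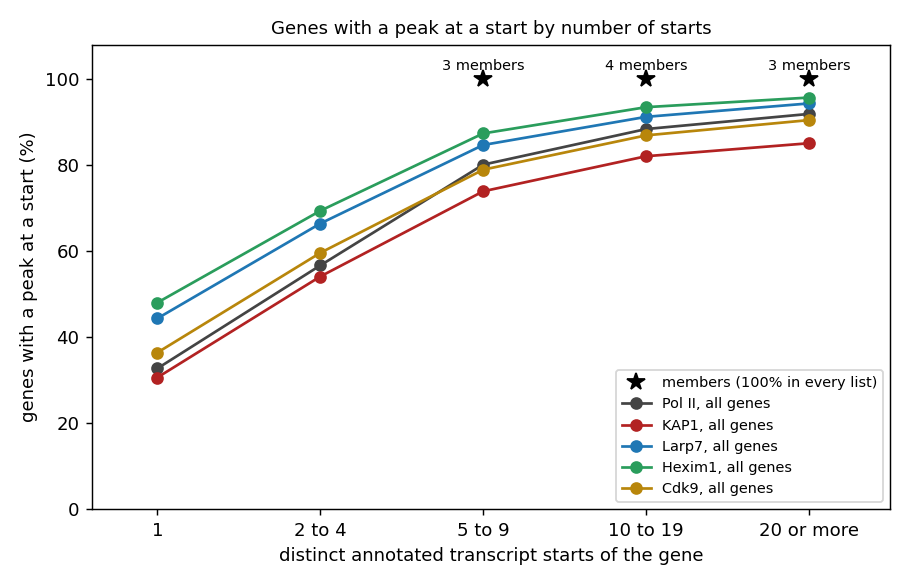
Share of genes (%) with a peak at a transcript start, by the number of distinct annotated starts of the gene, for the 10 members (stars, with their number per class) and for all genes in each of the 5 lists (lines). The members sit at 100% in all lists, and the line for KAP1 over all genes climbs to 85.1% at 20 or more starts.

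KAP1 folds of 8 of the 10 members lay between the quartiles of all genes with at least 5 starts and a KAP1 peak. For KAP1 the highest fold at a start was 5.69 at IGF2, 5.56 at MEST, 5.48 at GNAS, 5.19 at PLAGL1, 4.88 at KCNQ1OT1, 4.85 at PEG3, 4.68 at H19, 4.47 at CDKN1C, 4.40 at SNRPN and 3.53 at PEG10. These values spanned 1.61-fold, and 9 of the 10 lay between 4.40 and 5.69. Genes with at least 5 starts and a KAP1 peak had a median of 4.97 and quartiles of 4.36 and 5.68, so IGF2 stood just above the upper quartile and PEG10 below the lower one.

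Pol II folds at the same starts had a wider span. The highest fold was 157 at GNAS, 134 at CDKN1C, 122 at PLAGL1, 118 at KCNQ1OT1, 45.3 at IGF2, 19.4 at MEST, 15.6 at H19, 13.0 at PEG10, 7.91 at SNRPN and 6.33 at PEG3. That is a 24.8-fold span. In all genes with at least 5 starts the Pol II list is also more spread than the KAP1 list, with an upper quartile 4.10 times the lower one for Pol II and 1.30 times for KAP1, so the wider span is not particular to the members. These genes, where they had a Pol II peak, had a median of 45.8 and quartiles of 18.0 and 73.8. GNAS, CDKN1C, PLAGL1 and KCNQ1OT1 lay above the upper quartile, and H19, PEG10, SNRPN and PEG3 below the lower one. In the KAP1 list PEG3 (4.85) and KCNQ1OT1 (4.88) were nearly equal, and in the Pol II list they had 6.33 and 118.

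Larp7 ran between 4.54 at PEG10 and 6.58 at PLAGL1, with a median of 5.00 in genes with at least 5 starts and a Larp7 peak. Hexim1 ran between 5.80 at H19 and 10.5 at PLAGL1, against a median of 7.32. Cdk9 ran between 3.85 at PEG10 and 5.53 at KCNQ1OT1, against a median of 4.71. With windows of 1 kb PEG10 was thus the lowest member for KAP1, Larp7 and Cdk9, but not for Hexim1, where its 6.94 was above IGF2, PEG3, SNRPN and H19.

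**Figure D2:**
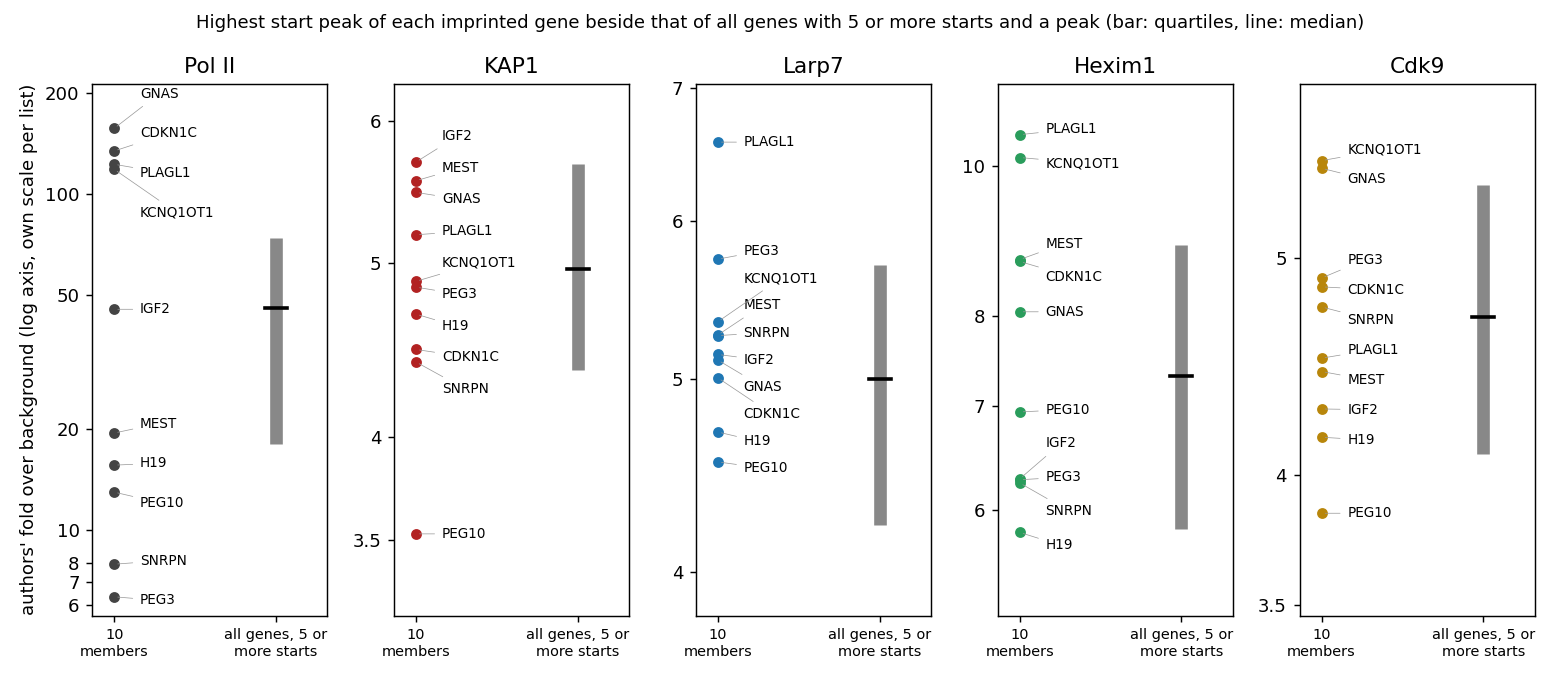
Highest fold over background at a transcript start (log axis with its own scale in each panel) for the 10 members (points) beside all genes with at least 5 starts and a peak of that list (bar for the quartiles, line for the median). KAP1 folds of the members crowd between 4.40 and 5.69 except PEG10 at 3.53, while Pol II folds spread between 6.33 and 157.

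When starts within 1 kb of one another were joined, the members had 40 separate promoters, and these differed sharply within a gene. All 5 factors met at 21 of the 40 and no factor was called at 10. KAP1 was at 23, Larp7 at 27, Hexim1 at 28, Cdk9 at 25 and Pol II at 23. Of 56240 promoters of genes with at least 5 starts, 32.3% had KAP1, 48.2% Larp7, 52.8% Hexim1, 38.7% Cdk9 and 37.3% Pol II, and 28.2% had all 5. KAP1 and Pol II occurred together at 22 promoters. How often they share a promoter, or no factor is called, was not counted over the 56240, so these counts only describe the members. KAP1 was without Pol II at 1, the second H19 promoter, and Pol II without KAP1 at 1, the eighth GNAS promoter. Another 6 promoters had 7SK proteins or Cdk9 with neither KAP1 nor Pol II. Neighbouring promoters can share 1 wide peak, so the 23 are not 23 separate KAP1 peaks.

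**Figure D3:**
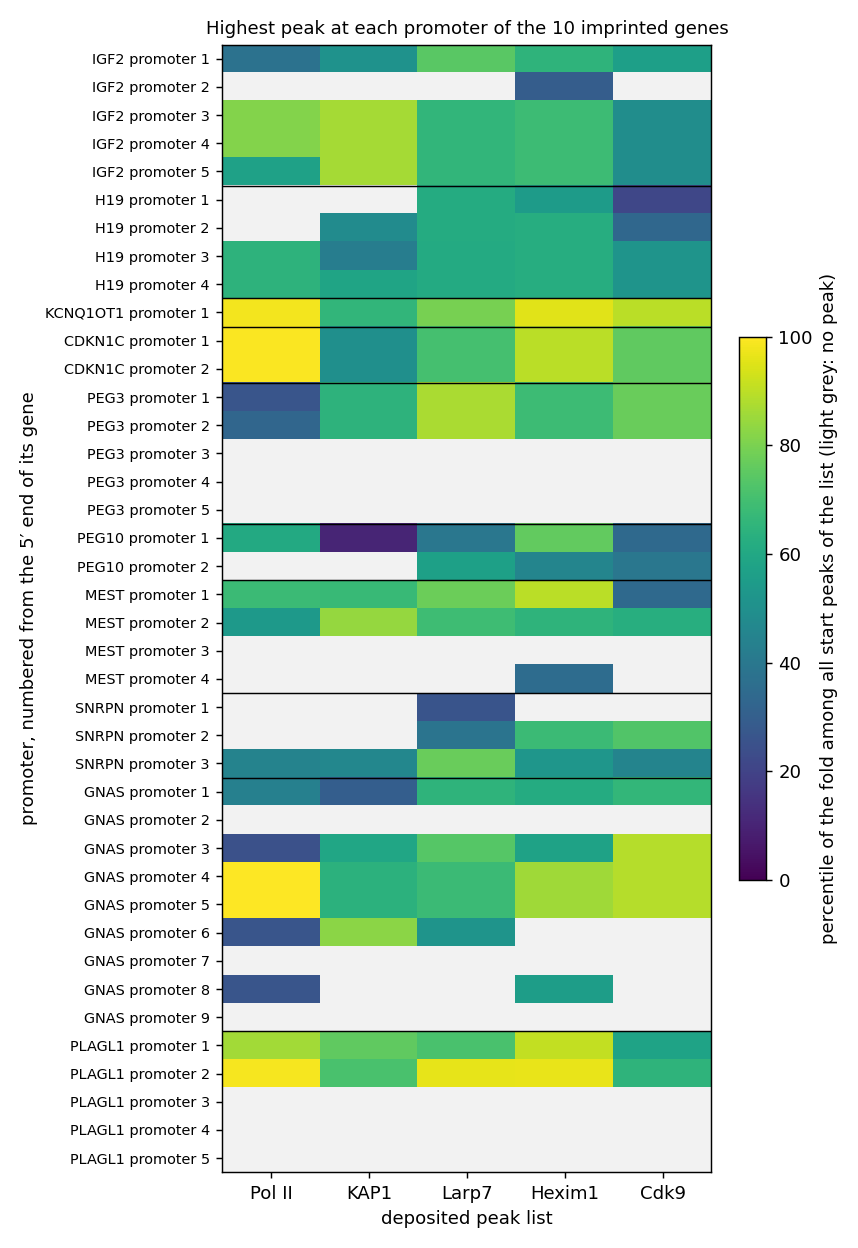
The 40 promoters of the 10 members (rows, numbered from the 5′ end of each gene) by peak list (columns), coloured by the percentile of the highest fold among all start peaks of that list, with light grey where no peak was called. All 5 lists are filled at 21 promoters, and the filled rows sit at a few promoters of each gene.

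The chromosome 11 members lie in a pair of neighbouring domains, and IGF2 and H19 form the first. IGF2 (chr11:2150342-2179621, minus strand) encodes a fetal growth factor that is expressed from the paternal copy. Its KAP1 peak of highest fold, 5.69, ran over 3214 bp at chr11:2159059-2162272 and reached promoters 3, 4 and 5. The Pol II peak of 45.3 lay inside it at chr11:2159990-2161312, and its summit was 72 bp from a start of promoter 4. At the 5′ end of the annotated gene KAP1 had a fold of 4.51 over 3832 bp and Pol II 6.85. The second promoter, covered by 1 transcript, had Hexim1 alone at 3.70. IGF2 also had 7 KAP1 peaks in its body, which was the most of any member.

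H19 (chr11:2016396-2025782, minus strand) is a noncoding RNA made from the maternal copy. Its annotation includes a transcript that starts 6710 bp upstream of the start at position 2019072, which has the most transcripts. The last promoter, with 17 transcripts, had Pol II at 15.6 and KAP1 at 4.68. The second promoter, with 12 transcripts, had KAP1 at 4.44, Larp7, Hexim1 and Cdk9, and no Pol II. The CTCF repeats printed above lie on both sides of this second promoter. All 6 repeats fell inside 2 KAP1 peaks, chr11:2020555-2022495 with a fold of 4.31 and chr11:2023391-2024368 with 4.44. All 6 were also inside Larp7, Hexim1 and Cdk9 peaks, and none was inside a Pol II peak. The other 42 matches of the CTCF letters in the domain lay under KAP1 in 15 cases, Larp7 in 24, Hexim1 in 26, Cdk9 in 17 and Pol II in 8. Adjacent repeats within each of the 2 KAP1 peaks were 401 to 406 bp apart and share flanking letters, so they are not independent sites. The −log10 q of the 2 KAP1 peaks was 3.43 and 3.42.

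Seen from the annotated 5′ end instead, the window 1 to 6 kb upstream of H19 held 2 KAP1, 2 Larp7, 3 Hexim1, 1 Cdk9 and 2 Pol II peaks. That window begins beyond the repeats. Measured from the start with the most transcripts it held 2 KAP1, 2 Larp7, 2 Hexim1, 2 Cdk9 and 0 Pol II peaks. The 3 repeats nearer to the gene lay at the end of very wide peaks, 15445 bp for Larp7 and 24601 bp for Hexim1, which run on past the 3′ end of H19. The other 3 lay in peaks of 1773 bp for Larp7 and 1734 bp for Hexim1.

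KCNQ1OT1 and CDKN1C form the second chromosome 11 domain. KCNQ1OT1 (chr11:2618538-2721233, minus strand) is a paternal antisense RNA that starts within KCNQ1 and silences its neighbours in cis. It had 1 promoter for all 14 transcripts, and its Pol II peak of 118 had its summit 28 bp from a start. KAP1 covered this promoter at chr11:2720440-2721991 with a fold of 4.88, with Larp7 at 5.34, Hexim1 at 10.1 and Cdk9 at 5.53. CDKN1C (chr11:2904443-2907005, minus strand) encodes the cell cycle inhibitor p57 and is expressed from the maternal copy. Its Pol II peak of 134 at chr11:2905049-2907738 covered the starts and most of the gene, and the KAP1 peak of 2610 bp beneath it had a fold of 4.47. KCNQ1OT1 and CDKN1C are expressed from opposite parental copies, and the lists cannot say which copy carried either peak.

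GNAS (chr20:57414773-57486247, plus strand) encodes the stimulatory G protein subunit and makes different products from alternative promoters. The first promoter makes the maternal NESP55 transcript, and had KAP1 at 4.05 over 2622 bp and Pol II at 7.66. Promoter 3 makes the paternal XLαs transcript, and had KAP1 at 4.71 over 5452 bp, wider than 99.6% of all KAP1 peaks. Pol II within 1 kb of its starts reached 5.55 in a peak of 203 bp, and farther inside the same KAP1 peak it reached 6.84. Promoters 4 and 5, of the untranslated A/B transcript and of the main subunit, shared a Pol II peak of 157 at chr20:57463474-57467864. The KAP1 peak under them had 4.84 over 3830 bp. GNAS thus had KAP1 folds of 4.05 to 4.84 at promoters where Pol II ran between 5.55 and 157. The KAP1 value of 5.48 that gave GNAS its rank among the members came from a narrow peak of 205 bp near the sixth promoter, with Pol II at 5.80 and no Hexim1 or Cdk9 peak. The second, seventh and ninth promoters had no peak.

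**Figure D4:**
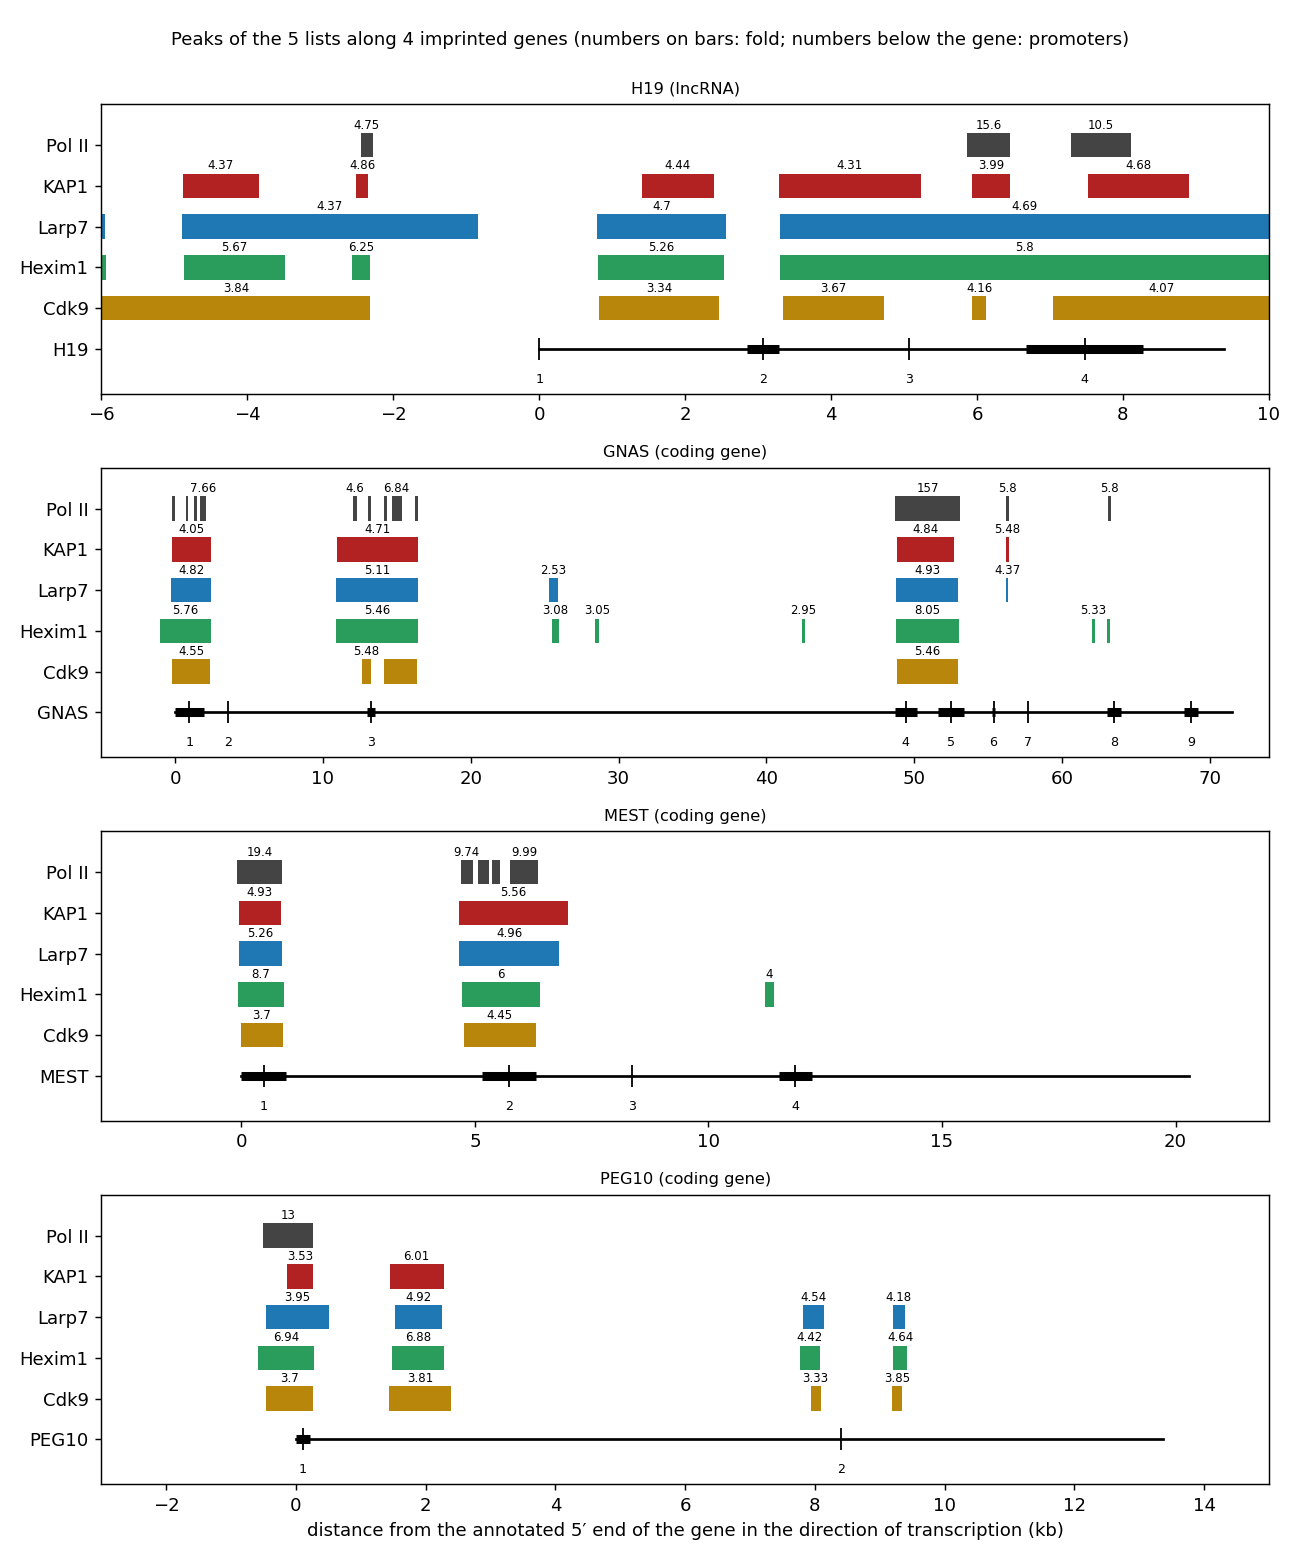
Peaks of the 5 lists (coloured bars, fold written above where there is room) along H19, GNAS, MEST and PEG10, by distance in kb from the annotated 5′ end in the direction of transcription, with promoters numbered below each gene. In H19 the 2 KAP1 peaks of 4.44 and 4.31 have no Pol II above them, and in PEG10 the KAP1 peak of 6.01 lies past the start.

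PEG3, MEST, SNRPN, PLAGL1 and PEG10 are expressed from the paternal copy, and each has a promoter that is methylated on the maternal one. PEG3 (chr19:57321445-57352096, minus strand) encodes a zinc finger protein. Its 5′ promoter, with 13 transcripts, had KAP1 at 4.85 over 3261 bp, chr19:57348972-57352232. Larp7 (5.74), Hexim1 (6.27) and Cdk9 (4.90) covered the same stretch in peaks of 4217, 4219 and 4133 bp. The KAP1 peak was wider than 98.2% of its own list. The Pol II peak at this promoter was 444 bp wide and reached 5.80, above 26.5% of Pol II start peaks. The 3 promoters farther down the gene had no peak of any list.

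MEST (chr7:130126012-130146306, plus strand), which encodes a hydrolase-like protein, has an upstream promoter and an imprinted one. The imprinted promoter, the second, had KAP1 at 5.56 over 2336 bp with a −log10 q of 6.22, and Pol II at 9.99. Upstream, the first promoter had KAP1 at 4.93 over 892 bp and Pol II at 19.4. KAP1 was therefore higher and wider, and Pol II lower, at the imprinted one of the pair. With 1 library these differences carry no error estimate.

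SNRPN (chr15:25068784-25223870, plus strand) encodes a spliceosomal protein, and its main promoter is the Prader-Willi imprinting centre. That promoter is number 3, which lies 131.3 kb from the annotated 5′ end. It had all 5 factors, with KAP1 at 4.40 over 1780 bp and Pol II at 7.91 with its summit 5 bp from a start. The first promoter had Larp7 alone at 3.46. The second had Larp7 at 3.91, Hexim1 at 6.24 and Cdk9 at 4.76, without KAP1 or Pol II.

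PLAGL1 (chr6:144261437-144385736, minus strand) encodes a zinc finger protein that restrains growth. Its imprinted promoter, the second, lies by the start of the noncoding HYMAI. It had Pol II at 122, KAP1 at 5.04, Larp7 at 6.58 and Hexim1 at 10.5, and the Larp7 and Hexim1 folds were the highest among members. The 5′ promoter had Pol II at 57.3 and KAP1 at 5.19. In PLAGL1, unlike MEST, the imprinted promoter had more Pol II and a similar KAP1 fold. The 3 remaining promoters of PLAGL1 had no peak.

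PEG10 (chr7:94285637-94299007, plus strand) derives from a retrotransposon and shares its start region with SGCE. KAP1 at that shared start was the lowest among members, 3.53 over 392 bp with a −log10 q of 1.94. That puts it above 10.3% of KAP1 start peaks and 19.8% of all KAP1 peaks. A second KAP1 peak at chr7:94287083-94287917, in the first part of the gene past the start window, had a fold of 6.01. It lies in an intron, has a −log10 q of 6.35 and was above 95.3% of all KAP1 peaks. Larp7 (4.92), Hexim1 (6.88) and Cdk9 (3.81) overlapped it, and Pol II did not. No other member had a body KAP1 peak of higher fold. With windows of 2 kb this peak counts as a start peak, and 3 members have KAP1 body peaks, against 4 with windows of 1 kb. PEG10 then has the highest KAP1 fold at a start among the 10 members, 6.01, in place of the lowest.

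Peaks in gene bodies were taken as those away from every start window. KAP1 had body peaks in 4 of the 10 members, Larp7 in 7, Hexim1 in 6, Cdk9 in 6 and Pol II in 5. All of these members are among the 8 that are at least 10 kb long. Of all genes of that length, 44.8% had a KAP1 body peak, 80.0% Larp7, 83.8% Hexim1, 70.3% Cdk9 and 47.8% Pol II. The counts in members lie near these shares. SNRPN, the longest member at 155.1 kb, had 16 Larp7, 20 Hexim1 and 11 Cdk9 body peaks, next to 3 for KAP1 and 2 for Pol II. Per 100 kb of gene, Larp7 was at 10.3 in SNRPN and 10.2 in IGF2, Hexim1 at 12.9 and 10.2, Cdk9 at 7.09 and 13.7, and KAP1 at 1.93 and 23.9. The KAP1 body peaks had folds between 3.72 and 4.55 in IGF2, of 3.42, 3.58 and 4.52 in SNRPN, 4.96 in KCNQ1OT1 and 6.01 in PEG10. MEST, H19 and CDKN1C had no body peak of any list.

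The density of peaks differed widely between the domains around the members. Across 8 domains there were 177 KAP1 peaks, 43 at starts, 80 in gene bodies and 54 between genes. Only the genes chosen for each domain were counted here, so a peak between genes can lie in another annotated gene. The KAP1 density was 4.32 per 100 kb in the domains and 2.14 per 100 kb in the genome. For Larp7 the density was 7.76 in the domains and 6.45 in the genome, for Hexim1 8.35 and 8.03, for Cdk9 6.05 and 4.20, and for Pol II 5.59 and 3.25. The chromosome 11 domains were the densest. The IGF2 and H19 domain had 24.1 KAP1 peaks per 100 kb and the KCNQ1OT1 and CDKN1C domain 17.1. GNAS had 4.33, PEG3 3.36, PLAGL1 1.61, SNRPN 1.44, MEST 1.32 and PEG10 0.777, the last 4 below the genome. GC content was 54.6% and 52.8% in the chromosome 11 domains, 47.4% in GNAS, 44.5% in PEG3, 40.3% in PLAGL1, 40.2% in SNRPN, 40.7% in MEST, 36.6% in PEG10 and 40.9% in the genome. Its part in the densities was not tested. Between the chosen genes of the IGF2 and H19 domain lay 26 KAP1 and 31 Pol II peaks.

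**Figure D5:**
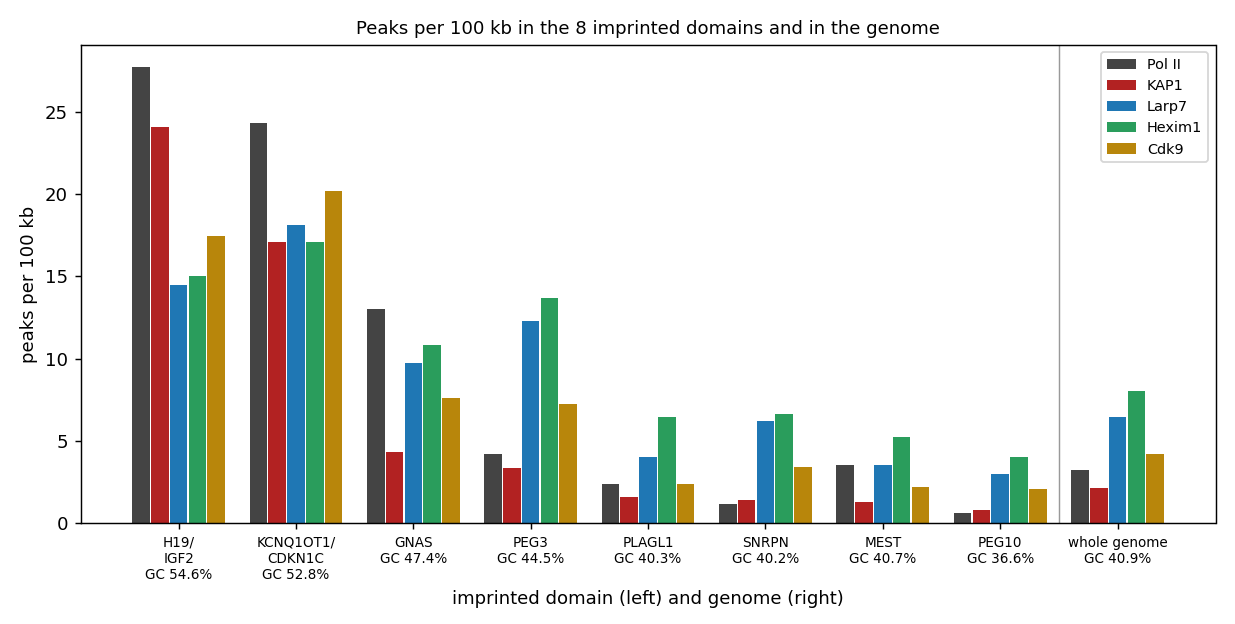
Peaks per 100 kb of each list in the 8 imprinted domains, ordered by KAP1 density, and in the whole genome at the right, with the GC content (%) under each name. KAP1 reaches 24.1 and 17.1 per 100 kb in the chromosome 11 domains and is below the genome value of 2.14 in PLAGL1, SNRPN, MEST and PEG10.

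Most KAP1 peaks in the domains were shared with the 7SK proteins. Larp7 overlapped 174 of 177 (98.3%, exact 95% interval 95.1 to 99.6), against 90.9% of all KAP1 peaks. Hexim1 overlapped 94.9% of domain peaks and 93.0% of all. Cdk9 overlapped 86.4% (80.5 to 91.1) and 76.3% of all. Pol II overlapped 67.2% (59.8 to 74.1) and 64.2% of all. The intervals cover counting error only, and neighbouring peaks are not independent. Of the 177 peaks, 40 were in the IGF2 and H19 domain and 83 in the KCNQ1OT1 and CDKN1C domain. The pooled shares thus describe mostly chromosome 11, and they were not split by domain. Domain KAP1 peaks were also wider, with medians of 706 bp in the domains and 513 bp in the whole list, while fold (4.17 and 4.15) and GC content (64.6% and 64.8%) were almost equal. How far width accounts for the overlaps was not tested. Pol II lay at 37 of the 43 start peaks, 47 of the 80 body peaks and 35 of the 54 between the chosen genes.

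The KAP1 peaks of highest fold in any of these domains were distal ones around PEG3 and not those on promoters of the members. Of the 177, 4 had a fold of at least 7, and all 4 were in the PEG3 domain, where the whole list has 1.16% of peaks at that level. They were chosen for description after their values were seen. The first, chr19:57454185-57454378, had a fold of 11.0, the sixth highest of the 61312 KAP1 peaks. It lies 102.1 kb upstream of the PEG3 start and 94.3 kb past the noncoding MIMT1. Its sequence holds 3 copies of a 21-base stretch, in capitals on the plus strand of hg19.
PEG3 domain KAP1 peak: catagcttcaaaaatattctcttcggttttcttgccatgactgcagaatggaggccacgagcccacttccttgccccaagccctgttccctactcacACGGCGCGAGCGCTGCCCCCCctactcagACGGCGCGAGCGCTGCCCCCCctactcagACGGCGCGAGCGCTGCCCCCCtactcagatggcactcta
It has no TGCCGC hexamer. Larp7 had 10.1 there and Cdk9 8.78, above 99.99% and 99.98% of their own lists. Hexim1 had 7.44, above 95.9% of its list, and Pol II 9.49, above 71.2%. What a repeat does to read alignment at this place was not tested. The other 3 were chr19:57617478-57618476 with 7.21, chr19:57306509-57306981 with 7.14 in the body of ZIM2, and chr19:57610605-57610951 with 7.09.

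Elsewhere in the domains, KAP1 at starts of neighbours reached 6.46 at UBE3A, a ubiquitin ligase gene, 6.05 at USP29 and 6.04 at COPG2, a gene of the coat of transport vesicles. At PHLDA2, a growth-restraining placental gene, it was 5.91. These 4 were above every member at its own starts, and they were named after their values were seen.

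The ZFP57 hexamer was found in 78 of 177 domain KAP1 peaks (44.1%, exact 95% interval 36.6 to 51.7) and in 35.2% of all KAP1 peaks. As with the overlaps, most of the 177 peaks were on chromosome 11. Wider peaks have more room for the hexamer, and the comparison depended on width. Among peaks up to 500 bp it was in 22.2% of domain peaks and 18.0% of all, among 500 to 1000 bp in 47.9% and 38.5%. From 1000 to 2000 bp it was in 54.5% of domain peaks and 64.1% of all, and above 2000 bp in 77.3% and 84.5%. Counted per length, domain KAP1 peaks had 0.919 hexamers per kb, all KAP1 start peaks 1.03 and all KAP1 peaks 0.832. Of windows of 250 bp on each side of coding gene starts, 31.9% held the hexamer. In the middle of each peak and 250 bp on each side, it was in 32.8% of domain KAP1 peaks and 27.4% of all. The CTCF letters were in 29.4% of whole domain peaks and 35.5% of all whole KAP1 peaks. In windows of the same length they were in 20.9% of domain peaks, 28.8% of all KAP1 peaks and 28.6% of coding gene starts.

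Single members differed. The KAP1 peak at the imprinted PLAGL1 promoter had 6 hexamers, 6.85 per kb, and the upstream H19 peak had 5, or 5.11 per kb. The other H19 peak with CTCF repeats, chr11:2020555-2022495, had 3 (1.55 per kb), and the peak at the last H19 promoter had 1 (0.727). The 5′ promoter of PLAGL1 had 2 in a narrower peak, 3.88 per kb. KCNQ1OT1 had 6 (3.87 per kb), PEG3 11 (3.37), the imprinted MEST promoter 6 (2.57) and the upstream MEST promoter 2 (2.24). GNAS promoter 3 had 10 (1.83), SNRPN 3 (1.69) and CDKN1C 4 (1.53). The IGF2 peak at promoters 3, 4 and 5 had 5 (1.56) and the one at its 5′ end 1 (0.261). The GNAS peak shared by promoters 4 and 5 had 2, and those at PEG10 and at the first GNAS promoter had none. A match is a description of letters, and neither it nor its absence says whether a factor was bound.

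Beyond the 10, a list of 35 other imprinted genes was matched in full. KAP1 was at a start of 30, Larp7 of 35, Hexim1 of 34, Cdk9 of 34 and Pol II of 32, and all 5 shared a start in 28. Over all genes KAP1 was at 52.8% and all 5 at 48.0%, and over genes with at least 5 starts at 77.8% and 73.3%. Larp7 was at 64.9% of all genes, Hexim1 at 68.0%, Cdk9 at 58.3% and Pol II at 56.5%. With at least 5 starts these were 87.9%, 90.3%, 82.8% and 84.1%. Some of the 35 share peaks with members, as SGCE does with PEG10 and ZIM2 with PEG3. The highest KAP1 folds were 6.57 at RB1, a cell cycle regulator, 6.51 at IGF2R, the receptor that clears IGF2, 6.46 at UBE3A and 6.38 at INPP5F. No gene of this list lacked every factor. KAP1 was missing at AIRN, DDC, GPR1-AS, MCTS2 and NLRP2. AIRN, the antisense RNA that silences IGF2R in mice, had Larp7 at 6.55 and Cdk9 at 4.41 but neither Pol II nor Hexim1.

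Genes whose products keep imprints were looked up in the same way, 14 in all. Pol II was at 13 of them and KAP1 at 10, with Larp7 at 12, Hexim1 at 13 and Cdk9 at 9. Over all genes Pol II was at 56.5%, KAP1 at 52.8%, Larp7 at 64.9%, Hexim1 at 68.0% and Cdk9 at 58.3%. Over genes with at least 5 starts the shares were 84.1%, 77.8%, 87.9%, 90.3% and 82.8% in that order. TRIM28, the gene of KAP1 itself, had Pol II at 176 and KAP1 at 6.98. CTCF had 103 and 7.28, and DNMT1, the maintenance DNA methyltransferase, 119 and 6.31. The gene of ZFP57 had Pol II at 4.75 and KAP1 at 5.27, and that of ZNF445, another imprint-reading zinc finger, 49.1 and 3.25. UHRF1, which guides DNMT1, had KAP1 at 4.54, and ZNF202 at 5.61. Among the heterochromatin protein genes KAP1 was 5.99 at CBX1 and 6.55 at CBX3, and was absent at CBX5. DAXX, a histone chaperone gene, had 3.30, and no KAP1 peak was called at its partner ATRX, at SETDB1 or at DPPA3. DPPA3, which protects imprints in the early embryo, had Hexim1 as its only peak.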

How the data were processed

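Peak lists of 5 HCT116 ChIP-seq libraries were used, 1 library per antibody. Alignment to hg19 used Bowtie 1.1 and peak calling used MACS2, per the submitters' processing notes. Not given in the sources used here are the control library, duplicate handling, read depth and settings of the caller. Column 7 of the deposited lists holds the authors' fold, a ratio of the peak over its background. Summit positions were used for the Pol II list only, and widths and folds of different lists are not on 1 scale. Columns 8 and 9 hold the deposited −log10 p and −log10 q. Column 5, a score in the deposited lists, was left unused.

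Genes and starts came from GENCODE release 44 on GRCh37, which is hg19, and sequences from the same build. A factor was at a start when a peak reached within 1 kb of it. Promoters are starts chained within 1 kb. A body peak lies in the gene outside every start window. Domains run between the outermost genes of a list, and PEG3-AS1 was not matched in the annotation. Of the Cdk9 peaks, 2 off chromosomes 1 to 22, X and Y were left out. PECAM1 was not matched.

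The members, domain genes, lists and motifs were chosen with earlier results of these data known. Named genes are the 10 members, neighbours in their domains, the 4 other imprinted genes of highest KAP1 fold with those lacking KAP1, and all imprint maintenance genes. USP29, UBE3A, COPG2, PHLDA2 and the genes without KAP1 were named after their values were seen. Shares carry exact (Clopper-Pearson) 95% intervals. Python 3.11.15, pandas 2.3.3 and SciPy 1.17.1 were used, and interval overlap code was tested on simulated data. The alternatives changed the peak threshold, peak number, window, starts, overlap and peak extent. The nearest profile to KCNQ1OT1 and 1 sequence are not reported here.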

Additional observations from a re-analysis of the deposited data

How the results depend on the processing

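No paired analysis was possible because each antibody has 1 library, with no replicate to pair or leave out. Of 162 values under alternatives, 99 moved by less than the counting interval or 1.5 times, and 63 moved more. The counts of 10 members with each factor, and with all 5 at 1 start, were 10 with windows of 500 bp or 2 kb, with basic transcripts and with 50% overlap. The shares of all genes and all starts given below are not matched for the number of starts of a gene. Without alternatives KAP1 was at 52.8% of all genes but at 77.8% of genes with at least 5 starts. The matched shares were not computed under the alternatives. Shares of all genes with body peaks were not computed there either. For domain KAP1 peaks under the alternatives, shares over all KAP1 peaks were computed only for the hexamer in peak middles. Values without such a share only describe the members or domains.

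When peaks needed a −log10 q of 5 or more, KAP1 was left at 4 members (IGF2, MEST, PLAGL1 and GNAS) against 19.3% of all genes. GNAS passed only through the narrow peak by its promoter 6. PLAGL1 passed only through its 5′ promoter, with a −log10 q of 5.00, while its imprinted promoter had 4.63. Cdk9 was left at 2 members (KCNQ1OT1 and GNAS) against 12.1%, and all 5 at 0 against 7.05%. KAP1 was then at 11.9% of member starts, below the 16.8% over all starts, Larp7 at 76.8% (34.8% over all) and Cdk9 at 23.2% (10.3% over all), where the values without the limit were 79.8%, 83.9% and 81.0%. Body peaks were in 1, 4 and 0 members for KAP1, Larp7 and Cdk9, with no share of all genes computed. Pol II then overlapped 81.0%, Larp7 76.2% and Cdk9 14.3% of 21 domain KAP1 peaks.

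With the 20000 strongest peaks of each list, Larp7 was left at 5 members and all 5 factors at 3 (KCNQ1OT1, CDKN1C and PLAGL1), against 27.6% and 12.7% of all genes, and KAP1 at 8 (not PEG10 or SNRPN) against 33.6%. Member starts with a peak were then 59.5% (KAP1), 25.0% (Larp7), 44.0% (Hexim1), 48.8% (Cdk9) and 47.6% (Pol II), beside 29.1%, 22%, 37.9%, 28.8% and 39.9% of all starts. Body peaks were in 2, 3, 2, 3 and 0 members in that order, again with no share of all genes. Overlap of 50 domain KAP1 peaks was 42.0% each for Larp7 and Hexim1, 44.0% for Cdk9 and 30.0% for Pol II, and 58.0% held the hexamer.

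Counting only the 5′ end of a gene gave 100% for Larp7 and 90.0% for Cdk9, beside 60.1% and 53.1% of all genes. KAP1 and Pol II were then absent at H19 and SNRPN, and Hexim1 and Cdk9 at SNRPN. Basic transcripts gave 90.9% of starts for KAP1, 93.9% for Larp7, 91.9% for Cdk9 and 89.9% for Pol II. Over all such starts the shares were 54.2%, 65.5%, 58.9% and 59.8%. Overlap of 50% gave 74.4% for Larp7 and 80.4% for Hexim1 at starts, beside 57.0% and 60.6% of all starts. On domain KAP1 peaks it gave 94.9% for Larp7 and 80.2% for Cdk9. Peaks cut to their middle and 250 bp each side gave 63.1% (KAP1), 53.0% (Larp7), 58.3% (Hexim1), 61.3% (Cdk9) and 66.7% (Pol II) at starts, 49.7%, 46.9% and 59.9% overlap by Larp7, Hexim1 and Cdk9, and a hexamer in 32.8%. At member starts Larp7 and Hexim1 then lay below their values over all starts, 56.0% and 58.5%. KAP1, Cdk9 and Pol II lay above theirs, 46.6%, 51.4% and 54.6%.

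The window upstream of H19 also changed. At the q limit it held 1 Pol II peak and 0 of KAP1, Larp7 and Cdk9. With 20000 peaks it held 1 KAP1 peak and 0 of Larp7, Hexim1, Cdk9 and Pol II. Over 0 to 10 kb it held 5 KAP1, 3 Cdk9 and 5 Pol II peaks, and with peak middles 1 Larp7 peak. From the start with the most transcripts, a window chosen after seeing the data, it held 2 Cdk9 and 0 Pol II peaks. The comparison with genes of at least 5 starts and the split of the hexamer by width were also chosen after seeing the data. Apart from the alternatives' own construction, the cause of these changes was not tested. Depth is unknown, so an absent peak may be an undetected one.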

Other observations

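For 9 members the gene more than 1 Mb away with the most similar profile was found, by the sum of absolute differences in percentile of the highest start fold over the 5 lists. GNAS was nearest to ABTB1, at 5.68 percentile points. PEG3 was nearest to ABCC9 at 7.81, H19 to ABHD17A at 8.05 and PEG10 to GSTM4 at 8.11. SNRPN was nearest to INHBB at 10.4, MEST to MVB12A at 11.7 and IGF2 to TRAPPC6A at 16.6, and CDKN1C to BTG2-DT at 10.2. PLAGL1 was nearest to a lncRNA known by its identifier alone, at 6.98. The measure describes 1 library per list and says nothing of shared control.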
